A study of Mus musculus with 126 samples.

Results

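Prostate tumors weighing under 1 g were compared with tumors of 1 g or more in transgene-positive F2 males of a cross between TRAMP and NOD/ShiLtJ mice. The members were chosen by the tumor burden given in the sample labels, which put 15 of 126 arrayed males in the small group and all others in the larger group. Every male carried the TRAMP transgene, in which SV40 T antigens are driven by a probasin promoter in prostate epithelium, and no male without it was arrayed. Mice were killed at 30 weeks or at a humane endpoint, each male gave 1 primary tumor and 1 array, and the genotype at other loci differed from male to male. The paper reports that, across its F2 males, larger primary tumors went with earlier death and with lighter seminal vesicle tumors. Neither was a covariate here, so tumor size cannot be told apart from them. Primary tumor burden in the small group was 0.1 g at the lowest, 0.4 g at the median and 0.8 g at the highest. In the larger group it was 1.0, 4.8 and 14.0 g. Distant metastasis was recorded in 9 of 15 males with a small tumor (60%) and in 78 males with a larger one (70.3%), a difference that did not pass Fisher's exact test (two-sided, p = 0.552).

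As background, TRAMP tumors begin in a secretory epithelium that depends on androgen. Luminal cells of that epithelium hold keratins 8 and 18 and E-cadherin and release secretory proteins, basal cells hold keratins 5 and 14 and p63, and a wall of smooth muscle and fibroblasts surrounds the glands. The T antigens bind the Rb and p53 proteins, and advanced TRAMP tumors often have a neuroendocrine form, with granins, synaptic proteins and neural transcription factors. The small samples were bulk tissue, so a larger share of a cell type and more RNA per cell of that type cannot be told apart in any value below.

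Values are log2 expression after RMA, so a difference of 1 is a doubling. Of 23507 probe sets with a gene symbol that passed the filter on low values, limma with Benjamini-Hochberg adjustment called 9638 (41%) at an adjusted p of 0.05. Of these, 4431 (18.8% of those tested) were higher and 5207 (22.2%) lower in the small tumors. The test assumes equal spread in both groups, and the small tumors varied more. Limma with a weight per group called 6930 (29.5%), and Welch's t-test, which does not assume equal spread, called 4865 (20.7%). On simulated data with the spread of these groups, the unweighted test made more false calls than its threshold allows, so the counts under both other tests are given beside each list's count, and "rose" and "fell" refer to the unweighted test. The median difference over all probe sets tested was -0.02. The gene lists below were chosen with earlier results of these data known, so a shared direction within a list is not an independent result.

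The rises were larger than the falls. Among transcripts higher in small tumors the median difference was 0.43, 687 reached 2-fold and 115 reached 4-fold. Among those lower in small tumors the median size was 0.32, 203 reached 2-fold and 0 reached 4-fold. The largest rise was 3.75 ± 0.66 (SE), for the unnamed transcript 9530002B09Rik, and the largest fall was -1.74 ± 0.30, for Lrrtm4, a synaptic adhesion protein.

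Beyond the lists, the 15 largest rises and 15 largest falls named further genes. Papss2, which makes the sulfate donor of the cell, was 5.25, 10.53 and 12.33 in small tumors and 5.11, 5.64 and 12.15 in larger ones, a difference of 3.27 ± 0.45. Tspan1, a tetraspanin, rose by 3.11 ± 0.39, Ceacam1, a cell adhesion protein, by 3.09 ± 0.53, Agr2, a disulfide isomerase of secretory cells, by 2.93 ± 0.39, Timp4, an inhibitor of metalloproteases, by 2.96 ± 0.40 and Krt4 by 2.82 ± 0.43. Each of the 15 rises also passed with group weights and by Welch's t-test. Among the falls, Calb1, a calcium-binding protein, was 3.92, 7.27 and 10.45 in small tumors and 4.60, 9.33 and 11.23 in larger ones, a difference of -1.67 ± 0.43. Kcnmb2, a potassium channel subunit, fell by 1.51 ± 0.33, Cntn1, an axonal adhesion protein, by 1.51 ± 0.40 and Dcx, doublecortin, by 1.47 ± 0.30. Of the 15 falls, Nmu, Gria2 and Gdap1 did not pass by Welch's t-test (adjusted p = 0.0605, 0.0577 and 0.0573), and Nmu did not pass with weights either.

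**Figure D1:**
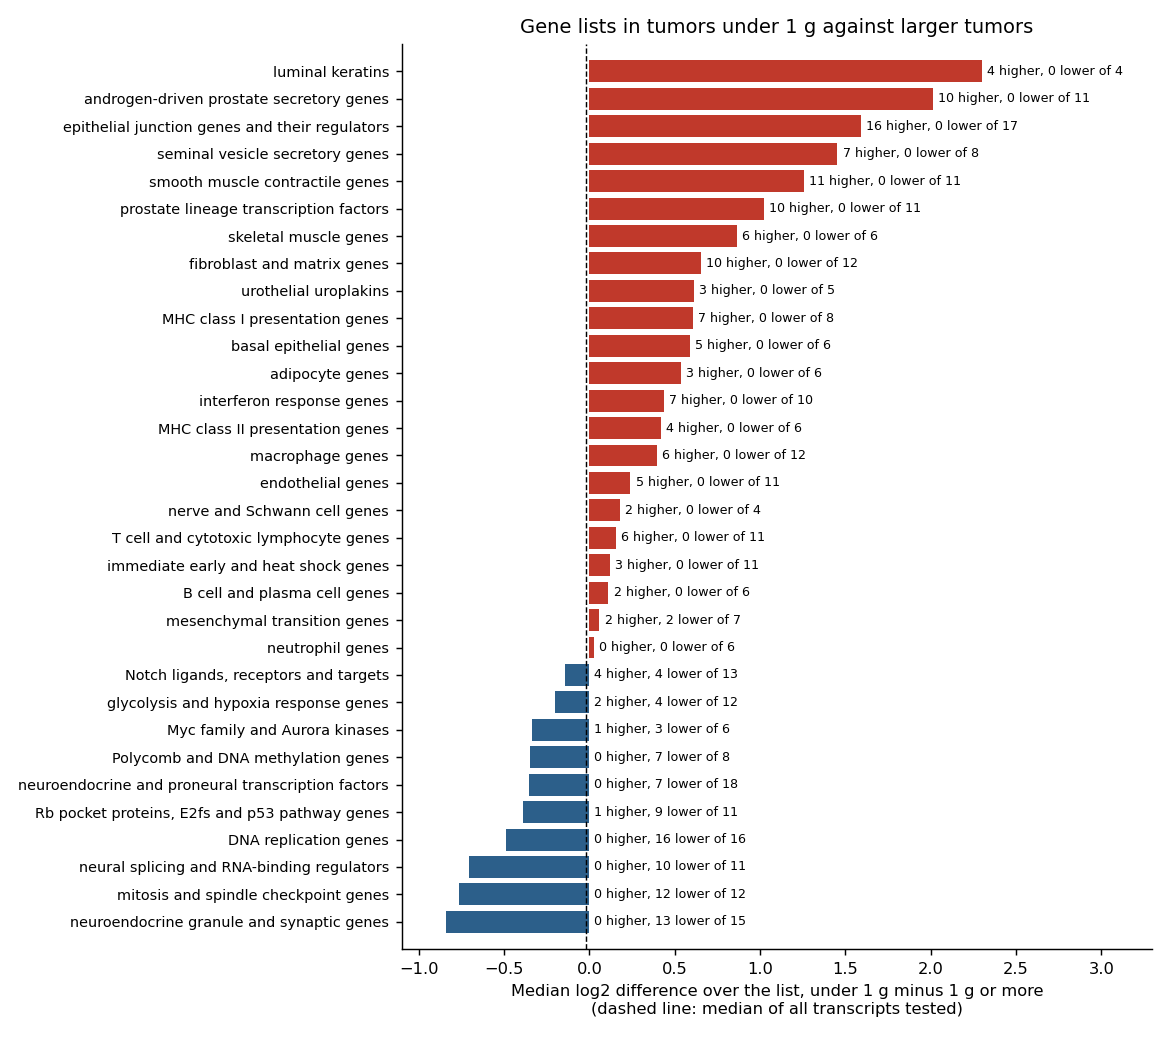
Median log2 difference (tumors under 1 g minus tumors of 1 g or more) over the tested members of each gene list, with the number of members called higher and lower by limma. The luminal keratins lie at 2.30 and the neuroendocrine granule and synaptic genes at -0.84, against -0.02 for all transcripts (dashed line).

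Genes of the secretory epithelium were higher in small tumors. Of 17 tested epithelial junction genes and their regulators, 16 rose and 0 fell, with a median difference of 1.59 (15 with group weights, 16 by Welch's t-test). Cdh1, which encodes E-cadherin, was 5.73 at the lowest, 10.09 at the median and 11.58 at the highest of the 15 small tumors, and 5.51, 6.0 and 11.79 in the larger tumors. The Cdh1 groups overlapped over nearly their whole range, but most small tumors lay near the top of it and most larger tumors near the bottom. The difference was 2.90 ± 0.39 (SE, limma adjusted p = 5.82e-09). A second Cdh1 probe set also rose, but only by 0.21. Ocln, a tight junction protein, rose by 2.31 ± 0.33, Esrp2, a regulator of epithelial splicing, by 1.97 ± 0.27, and Cldn7, a claudin, by 1.58 ± 0.23. Pkp3, a desmosome protein, had a smaller rise of 0.52 ± 0.07.

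All 4 luminal keratins tested rose, also with group weights and by Welch's t-test. Krt18 was 6.03, 10.14 and 11.29 (lowest, median, highest) in small tumors and 5.06, 6.63 and 11.63 in larger ones, a difference of 2.60 ± 0.35. A second Krt18 probe set rose by 0.375. Krt8 rose by 2.18 ± 0.33, Krt19 by 2.42 ± 0.32 and Krt7 by 0.83 ± 0.18. Of 6 basal genes, 5 rose (5 with weights, 4 by Welch's t-test), with a median of 0.59. Krt15 rose by 1.49 ± 0.28 and Itgb4, a hemidesmosome integrin, by 1.06 ± 0.19, while Krt14 rose by 0.70 ± 0.12 from a low level. Trp63, the p63 gene, rose by 0.49 ± 0.11 and lost its call by Welch's t-test (adjusted p = 0.068).

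Androgen-driven secretory genes had the largest median rise among the lists with more than 4 members tested. Of 11 tested, 10 rose and 0 fell (10 with weights, 9 by Welch's t-test), with a median of 2.02. Msmb, a major secreted protein of the prostate, was 4.42, 9.72 and 11.65 in small tumors and 3.97, 4.60 and 11.27 in larger ones. Msmb was therefore close to the larger tumors' level in some small tumors and far above it in others, and the difference was 3.06 ± 0.50 (adjusted p = 4.13e-07). Tmprss2, a secreted and membrane protease, rose by 2.64 ± 0.38, Azgp1 by 1.92 ± 0.23 and Spink1, a protease inhibitor, by 1.92 ± 0.32. Pbsn, the probasin gene, was 3.46, 5.62 and 11.51 in small tumors and 3.32, 3.63 and 11.02 in larger ones, a difference of 2.02 ± 0.34.

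The Pbsn promoter is shown because this gene is the classical androgen target of the mouse prostate. It is given from 250 bases before to 50 after the RefSeq start on GRCm38.p6, chrX:77853451-77853750, minus strand, with the match to the androgen response letters TGTTCT or their reverse complement AGAACA in capitals.
Pbsn: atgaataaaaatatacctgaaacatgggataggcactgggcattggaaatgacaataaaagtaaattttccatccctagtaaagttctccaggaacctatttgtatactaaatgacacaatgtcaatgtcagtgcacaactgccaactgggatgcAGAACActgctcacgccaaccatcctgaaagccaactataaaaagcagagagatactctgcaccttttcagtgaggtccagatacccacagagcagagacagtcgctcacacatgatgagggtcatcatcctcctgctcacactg
Of 8 genes of the list with a promoter in the RefSeq table, 3 (37.5%) held these letters on either strand, against 18.97% of all 32851 promoters of that length. Such a match is a description of the letters.

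Of 11 transcription factors of the prostate lineage, 10 rose and 0 fell (9 with weights, 9 by Welch's t-test), with a median of 1.02. Ehf rose by 2.64 ± 0.37, Elf3 by 1.86 ± 0.28, Hoxd13 by 1.61 ± 0.30 and Sox9 by 1.46 ± 0.24. Foxa1, a pioneer factor of the prostate epithelium, was high in both groups, at a median of 11.14 in small and 10.85 in larger tumors. Its difference of 0.37 ± 0.16 (adjusted p = 0.0456) lost its call with weights and when any of 10 of the small tumors was left out, N293 giving the highest adjusted p (0.106).

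Genes of neighboring tissues also differed, and their part in the results was not tested. Welch's t-test called 20.7% of all transcripts, a share that the seminal vesicle, skeletal muscle and nerve lists did not reach. Of 8 seminal vesicle secretory genes, 7 rose with the unweighted test, 3 with weights and 0 by Welch's t-test, with a median of 1.45. The list's mean ran from 4.12 to 11.41 in small tumors and from 4.16 to 10.15 in larger ones, and the highest small tumors were those of N275 and N582. Svs1, Svs6 and Svs3b each lost their call when N275 or N582 was left out (adjusted p from 0.055 to 0.103). Among uroplakins, the membrane proteins of the bladder lining, 3 of 5 rose under all 3 tests, Upk1b by 3.06 ± 0.47 and Upk1a by 2.73 ± 0.40. The uroplakin median was only 0.61, and 2 members, among them Upk3a, did not pass. All 6 skeletal muscle genes rose (4 with weights, 1 by Welch's t-test), with the list's mean at 10.77 in N183 and at 5.32 in the lowest small tumor. Myh4 lost its call without N183 (adjusted p = 0.22). Of 4 nerve and Schwann cell genes, 2 rose (1 with weights, 0 by Welch's t-test). Without N1202, Cdh19 of that list lost its call (adjusted p = 0.476).

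Stromal genes were higher in small tumors. All 11 smooth muscle genes rose (11 with weights, 7 by Welch's t-test), with a median of 1.26. Cnn1, calponin, was 5.66, 9.26 and 11.78 in small tumors and 5.29, 6.22 and 11.91 in larger ones, a difference of 2.38 ± 0.42. Myh11, smooth muscle myosin, rose by 1.96 ± 0.33 and Des, desmin, by 1.83 ± 0.33. Of 12 fibroblast and matrix genes, 10 rose (6 with weights, 6 by Welch's t-test), Dcn by 1.82 ± 0.37 and Lum by 1.45 ± 0.27, both small matrix proteoglycans. Col1a1 lost its call without N820 (adjusted p = 0.0522). Of 11 endothelial genes, 5 rose (3 with weights, 2 by Welch's t-test). The Welch count lay below the share of all transcripts called by that test (20.7%). Emcn lost its call without N1202 or N820 (adjusted p = 0.0703 and 0.0784), and Cldn5 without N1202, N275 or N582 (0.142, 0.0556 and 0.0514). Tek, a receptor for angiopoietins, rose by 0.72 ± 0.15, and Pecam1 differed by 0.32 ± 0.14 without passing (adjusted p = 0.0582).

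Most immune lists held genes that were higher in small tumors, against 18.8% of all transcripts tested by the unweighted test. Welch's t-test called 20.7% of all transcripts in either direction. The macrophage, B cell, neutrophil and immediate early lists lay below that share. Of 11 T cell and cytotoxic lymphocyte genes, 6 rose (5 with weights, 4 by Welch's t-test), with a median of 0.15. Cd3g, part of the T cell receptor complex, rose by 0.98 ± 0.18 and Gzmb, a killer cell protease, by 0.74 ± 0.12. Of 12 macrophage genes, 6 rose (3 with weights, 1 by Welch's t-test), led by Cd14 at 1.03 ± 0.19. Csf1r and C1qa lost their calls without N820 (adjusted p = 0.0727 and 0.145) or without N1159 (0.0602 and 0.0624). None of 6 neutrophil genes passed under any of the 3 tests. Of 8 MHC class I presentation genes, 7 rose (7 with weights, 4 by Welch's t-test), H2-K1 by 0.92 ± 0.21 and B2m by 0.54 ± 0.13. Of 10 interferon response genes, 7 rose (7 with weights, 4 by Welch's t-test), Oas2 by 1.20 ± 0.24. Of 6 MHC class II genes 4 rose (4 with weights, 3 by Welch's t-test), and of 6 B cell and plasma cell genes 2 rose (2 with weights, 0 by Welch's t-test). Of 6 adipocyte genes 3 rose (2 with weights, 2 by Welch's t-test), and Adipoq lost its call without N820 or N822 (adjusted p = 0.101 and 0.0606). Of 11 immediate early and heat shock genes 3 rose (2 with weights, 2 by Welch's t-test), and Junb lost its call without N1202, N293 or N820 (adjusted p = 0.0677, 0.0784 and 0.0758). Cxcl14, a chemokine, was 7.78, 9.57 and 11.13 in small tumors and 7.01, 8.17 and 10.45 in larger ones, a difference of 1.13 ± 0.20 (adjusted p = 2.76e-06). The paper had picked Cxcl14 from these same tumors, in part for a negative correlation with primary tumor burden. The difference is therefore not a separate test of that relation.

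**Figure D2:**
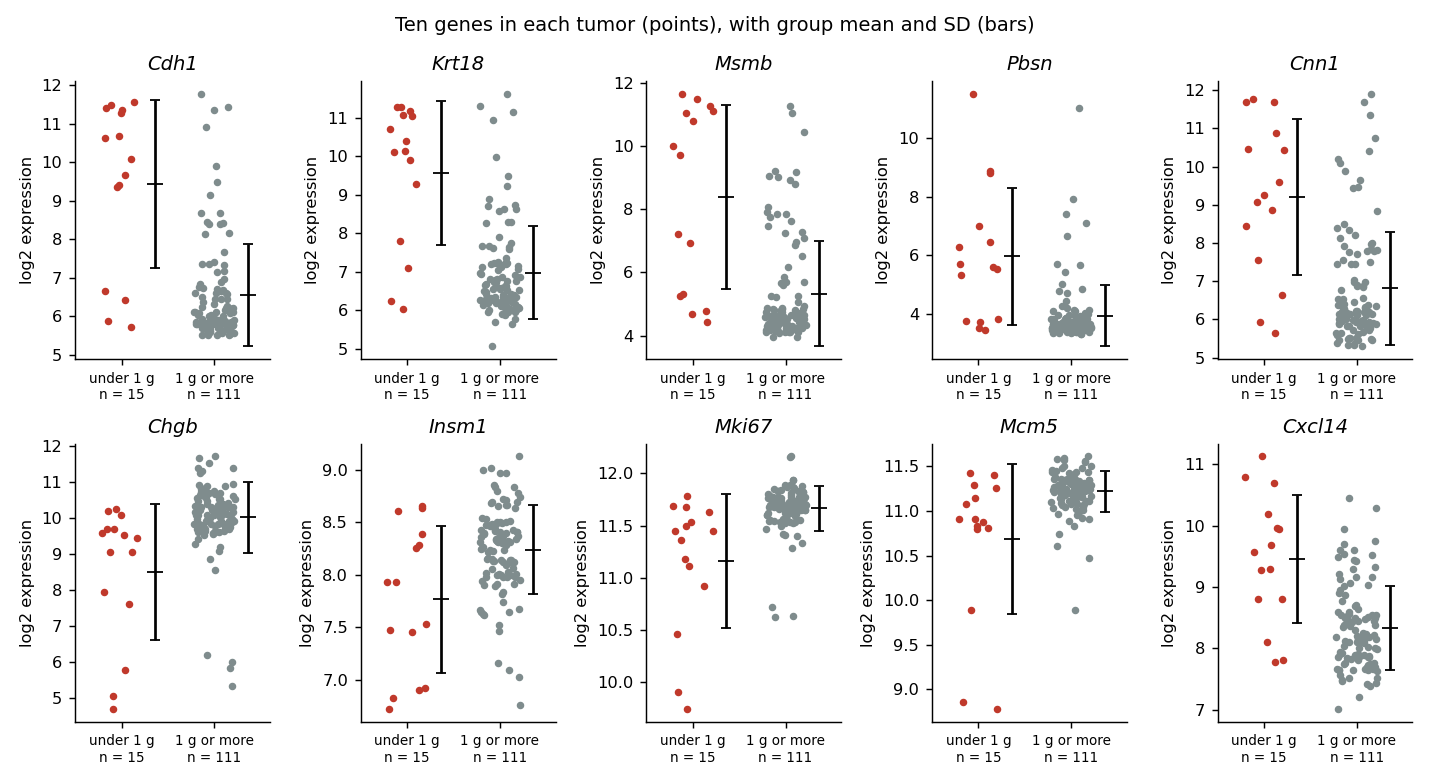
Log2 expression of 10 genes in every tumor (points), with the group mean and SD (bars), for tumors under 1 g (n = 15) and of 1 g or more. The groups overlap for every gene, and the small tumors spread over most of the range of Cdh1, Krt18, Msmb and Cnn1.

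Neuroendocrine genes were lower in small tumors by the unweighted test, which called 22.2% of all transcripts lower. A smaller share of the granule and synaptic genes passed by Welch's t-test than of all transcripts (20.7%). Of 15 granule and synaptic genes, 13 fell and 0 rose, with a median of -0.84 (12 fell with weights, 2 passed by Welch's t-test). Chga, chromogranin A, was 6.45, 10.48 and 11.44 in small tumors and 6.92, 10.73 and 11.70 in larger ones. The medians lay close together, and the lowest small tumor was below the lowest larger tumor. The difference was -0.84 ± 0.24 (limma adjusted p = 0.00217, Welch 0.14). Chgb, chromogranin B, differed by -1.51 ± 0.31 (Welch 0.045), Scg3 by -1.30 ± 0.29 (Welch 0.09) and Syt1, a calcium sensor of vesicle release, by -1.16 ± 0.27 (Welch 0.077). The mean of this list was 6.27 in N293, 6.37 in N275 and 6.69 in N582, and at least 8.36 in each of the other 12 small tumors.

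Of 18 neuroendocrine and proneural transcription factors, 7 fell and 0 rose (6 with weights, 1 by Welch's t-test). The Welch count was again below the share of all transcripts called by that test (20.7%). Insm1 fell by 0.47 ± 0.13, Sox11 by 1.14 ± 0.25 and Prox1 by 1.06 ± 0.30. None of these 3 passed by Welch's t-test (adjusted p = 0.074, 0.087 and 0.16). Of 11 neural splicing and RNA-binding regulators, 10 fell (10 with weights, 3 by Welch's t-test). Rbfox2 fell by 0.40 ± 0.06 and Rbfox1 by 1.18 ± 0.22, and both passed all 3 tests. Of 6 Myc family and Aurora kinase genes, 3 fell and 1, Mycl, rose (3 and 0 with weights, 2 in all by Welch's t-test). Without N183 Mycl lost its call (adjusted p = 0.125). Mycn fell by 0.72 ± 0.19 (Welch 0.054) and Aurka, a mitotic kinase that binds N-Myc, by 0.85 ± 0.14 (Welch 0.035). Myc differed by 0.29 ± 0.17 without passing (adjusted p = 0.163).

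Cell cycle genes were lower in small tumors. All 12 mitosis and spindle checkpoint genes fell (12 with weights, 11 by Welch's t-test), with a median of -0.77. Mki67, a marker of cycling cells, was 9.74, 11.45 and 11.78 in small tumors and 10.62, 11.69 and 12.16 in larger ones, a difference of -0.51 ± 0.08 (adjusted p = 2.74e-07). Bub1, a checkpoint kinase, fell by 1.01 ± 0.16 and Top2a, a topoisomerase, by 0.83 ± 0.13. All 16 DNA replication genes fell (16 with weights, 5 by Welch's t-test), with a median of -0.49. Mcm5, a subunit of the replicative helicase, was 8.78, 10.90 and 11.42 in small tumors and 9.88, 11.25 and 11.61 in larger ones, a difference of -0.54 ± 0.10 (Welch 0.085). Of 11 genes of the Rb, E2f and p53 pathway 9 fell and 1 rose (9 and 1 with weights, 3 in all by Welch's t-test), and of 8 Polycomb and DNA methylation genes 7 fell (6 with weights, 5 by Welch's t-test). E2f1 fell by 0.51 ± 0.09, Ezh2, a Polycomb methyltransferase, by 0.46 ± 0.08, and Dnmt1 by 0.40 ± 0.07. Rbl2, a pocket protein of resting cells, rose by 0.50 ± 0.10. Rb1 fell by 0.26 ± 0.08 (Welch 0.12), and a second Rb1 probe set differed by -0.164 without passing.

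The promoters of a pair of replication helicase genes are shown because E2F factors are known to act on such genes. Capitals mark matches to TTTNNCGC or its reverse complement GCGNNAAA, 2 of which overlap each other in each promoter. The third match in Mcm6 stands apart. The Mcm5 window is chr8:75109259-75109558, plus strand, and the Mcm6 window chr1:128359656-128359955, minus strand, both RefSeq on GRCm38.p6.
Mcm5: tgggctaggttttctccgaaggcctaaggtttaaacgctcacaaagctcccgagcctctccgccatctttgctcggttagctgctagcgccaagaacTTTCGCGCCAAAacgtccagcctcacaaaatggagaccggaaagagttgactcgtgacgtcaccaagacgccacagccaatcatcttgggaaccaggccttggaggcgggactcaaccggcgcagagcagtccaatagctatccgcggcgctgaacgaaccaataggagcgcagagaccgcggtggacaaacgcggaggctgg
Mcm6: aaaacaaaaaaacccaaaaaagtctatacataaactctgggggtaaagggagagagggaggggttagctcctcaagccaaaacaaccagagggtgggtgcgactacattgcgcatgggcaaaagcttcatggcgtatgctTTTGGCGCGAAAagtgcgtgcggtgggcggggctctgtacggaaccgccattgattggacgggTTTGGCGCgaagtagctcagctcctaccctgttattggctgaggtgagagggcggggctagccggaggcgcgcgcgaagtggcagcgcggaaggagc
Of 13 replication genes with a promoter in the table, 8 (61.54%) held these letters, against 5.169% of all promoters of that length.

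The Notch, mesenchymal transition and glycolysis lists had members in both directions and small medians. Of 13 Notch pathway genes, 4 rose and 4 fell (4 and 2 with weights, 2 in all by Welch's t-test). Welch's t-test called 20.7% of all transcripts, a larger share than of the Notch genes. Notch2 rose by 0.91 ± 0.21 and Hes1, a Notch target, by 0.66 ± 0.16, while Nrarp, another target, fell by 0.32 ± 0.08. Of 7 mesenchymal transition genes, 2 rose and 2 fell (2 and 1 with weights, 2 in all by Welch's t-test), with Cdh2, N-cadherin, at -1.02 ± 0.22 and Fn1, fibronectin, at 0.86 ± 0.23. Zeb1 lost its call without any of N183, N275, N293 or N582 (adjusted p from 0.0622 to 0.0976). Vim differed by 0.06 ± 0.15 (adjusted p = 0.795). Of 12 glycolysis and hypoxia genes, 2 rose and 4 fell (1 and 2 with weights, 3 in all by Welch's t-test), and the rises were 2 of 12 against 18.8% of all transcripts tested. Hk2, a hexokinase, differed by 0.94 ± 0.22 and Pkm, pyruvate kinase, by -0.27 ± 0.07. Car9 lost its call without any of N1202, N275, N293, N582 or N820 (adjusted p from 0.09 to 0.106). Vegfa, a growth factor for vessels, lost it without any of 7 small tumors (adjusted p from 0.0523 to 0.0939), N1202, N1331, N275, N293, N585, N820 and N822.

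The small tumors differed widely from one another. For the junction list, the mean minus the median of the larger tumors was above 1.6 in 11 small tumors, and it was 0.4 in N1444, 0.1 in N1130, -0.2 in N329 and -0.3 in N1457. For the androgen-driven secretory list it was between 2.4 and 4.1 in 10 of the 15 and between -0.4 and 0.5 in N1130, N891, N1444, N1457 and N329. N891 was thus high in junction genes (1.8) and luminal keratins (2.6) but not in secretory genes (-0.1). The tumors near the larger group were not the heaviest of the small group alone, since N1130 weighed 0.25 g and N891 0.4 g, and N183 at 0.8 g had a secretory list 3.0 above the larger median. On the first principal component, which held 33.22% of the variance, small tumors ran from -23.32 in N1457 to 134.92 in N293, and larger tumors from -31.13 to 130.33.

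**Figure D3:**
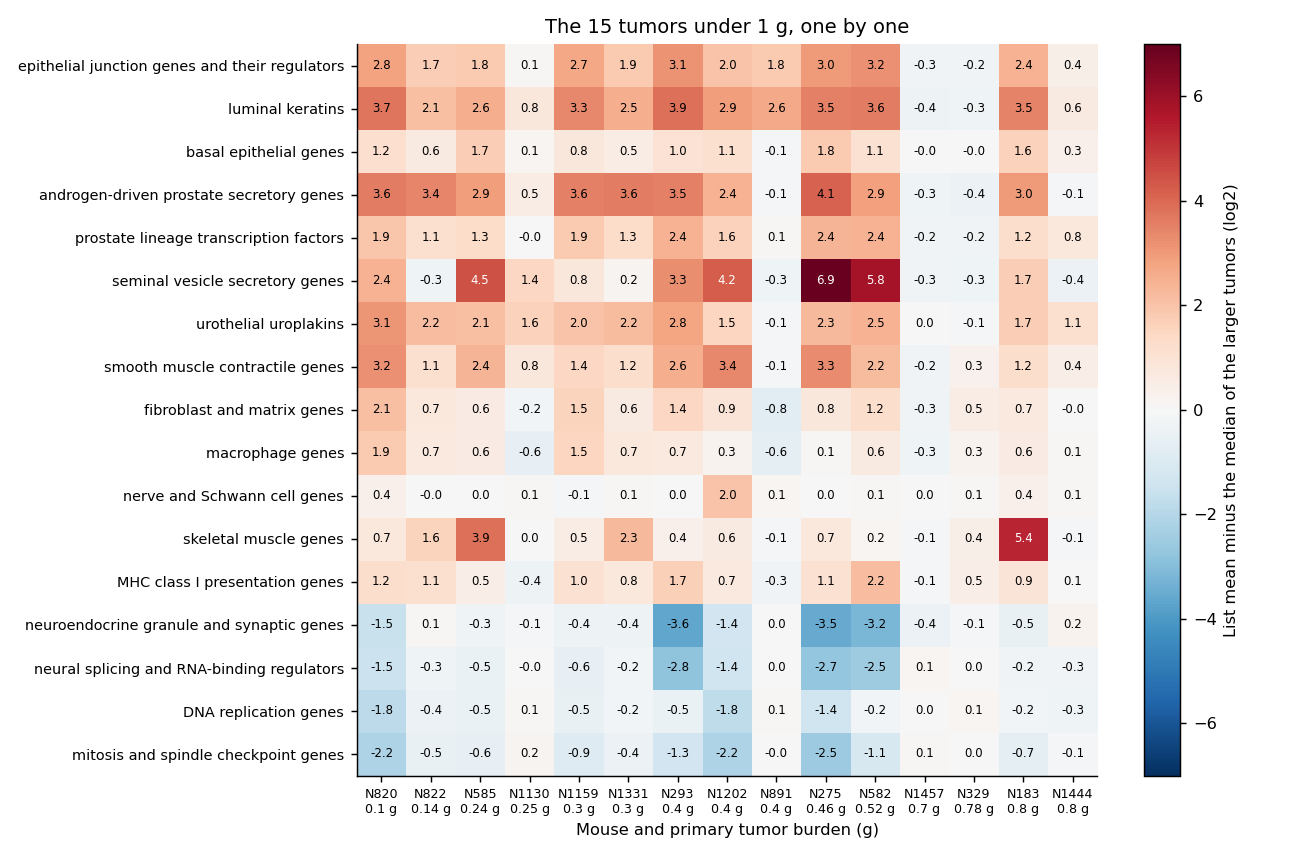
Each of the 15 tumors under 1 g (columns, ordered by burden) against 17 gene lists (rows); cells give the list mean minus the median of the larger tumors, in log2 units. N1457 and N329 lie between -0.43 and 0.51 in every list shown, while N293, N275 and N582 combine high epithelial with low neuroendocrine values.

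Among the small tumors, the lowest neuroendocrine values were in those with high epithelial values. High epithelial values did not always come with low neuroendocrine values. N822, N1159, N1331, N585 and N183 were 1.7 to 2.7 above the larger median in the junction list, and between -0.5 and 0.1 in the neuroendocrine list. In N293, N275 and N582 the junction list was 3.0 to 3.2 above and the neuroendocrine list 3.2 to 3.6 below. N820 and N1202 lay between these, at -1.5 and -1.4, with the mitosis list at -2.2 in both. Some larger tumors also combined high epithelial with low neuroendocrine values. N614 (1.02 g) had a junction mean of 9.19 and a neuroendocrine granule mean of 7.24. Cdh1 and Chgb were 11.79 and 5.34 in N586, 11.37 and 6.01 in N1086 and 11.43 and 5.84 in N1423, all larger tumors. In the larger tumors N1234 and N596, Cdh1 was 9.9 and 9.48 and Chgb 8.87 and 9.58.

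Spread within the small group was tested on absolute deviations from the group median. Limma called 5275 transcripts (22.4%), of which 5246 varied more and 29 less among small tumors. The SD was larger in the small group for 74.14% of transcripts tested, with a median ratio of 1.25. The median ratio was 2.54 for DNA replication genes, where all 16 passed, 2.54 for mitosis genes, where all 12 passed, and 2.15 for neuroendocrine granule genes, where 12 of 15 passed. It was 1.11 for fibroblast genes, with 0 of 12, and 1.20 for immediate early and heat shock genes, with 0 of 11.

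The widest transcripts had their highest values in few of the small tumors. Kera, a corneal and matrix proteoglycan, had an SD ratio of 7.34, with a median of 5.06 and a highest value of 9.34 among small tumors, against at most 5.84 among larger ones. Spinkl, of the seminal vesicle list, had a ratio of 7.00 and was 9.97 in N275, 6.70 in N582 and 5.55 in N1202. Its median among small tumors was 3.62, and it was at most 4.66 in larger tumors. Dnase2b and Cxcl17 had ratios of 6.58 and 5.77. Transcripts with less spread among small tumors were few. Luzp2 had a ratio of 0.33 and ran from 4.67 to 6.02 in small tumors and from 4.36 to 10.18 in larger ones, and Dbx2 had a ratio of 0.28.

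**Figure D4:**
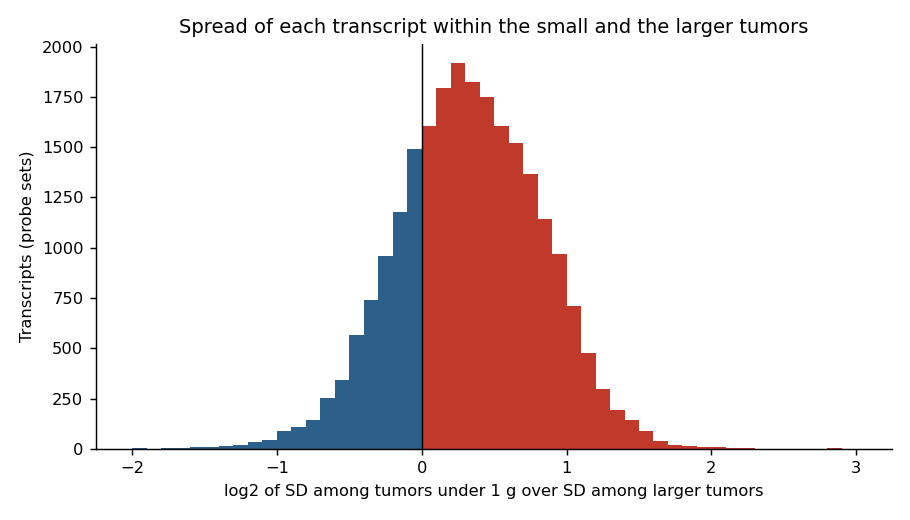
Number of transcripts by the log2 ratio of the SD among 15 tumors under 1 g to that among larger tumors, with ratios above 0 in red. The distribution lies mostly to the right of 0, with 74.14% of transcripts more variable among small tumors.

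Whether the difference followed weight on either side of 1 g was examined next. Among the larger tumors, the slope on log2 burden passed for 4508 transcripts (19.2%), 2189 (9.31%) rising and 2319 (9.87%) falling with weight, and with burden in g in place of its log2 for 1937. These fits share the larger tumors with the main comparison, so values are given side by side only. Cdh1 changed by -0.75 per doubling of burden, Krt18 by -0.62, Msmb by -0.83 and Cnn1 by -0.72, each past the threshold. Chgb rose by 0.37 per doubling and Mki67 by 0.07. Of the junction list 12 of 17 fell with weight, of smooth muscle 11 of 11, and of mitosis genes 10 of 12 rose. No seminal vesicle gene of the 8 passed. Among the 15 small tumors, the slope passed for 0 transcripts by limma (937 at an unadjusted p under 0.05, no more than chance gives). With 15 arrays the test can miss slopes, so it cannot show that expression was unrelated to weight there.

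By weight class, the median of the junction list was 8.12 under 1 g, 6.87 from 1 to under 2 g (n = 15), 6.32 from 2 to under 3 g (n = 11) and between 6.18 and 6.23 in the 4 heavier classes. The androgen-driven secretory list ran 8.26, 6.04 and 5.33 over the first 3 classes, and was 5.11 at 8 g or more. Set against only the 26 tumors of 1 to under 3 g, 0 transcripts passed for the small tumors by limma, the methods' t-test, Welch's t-test or the rank-sum test, with 5060, 4895, 3880 and 4568 at an unadjusted p under 0.05. In that comparison the list medians were 1.18 for the junction list, -0.57 for the neuroendocrine granule list, 0.65 for smooth muscle, 0.32 for fibroblast and matrix genes and 0.29 for uroplakins.

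**Figure D5:**
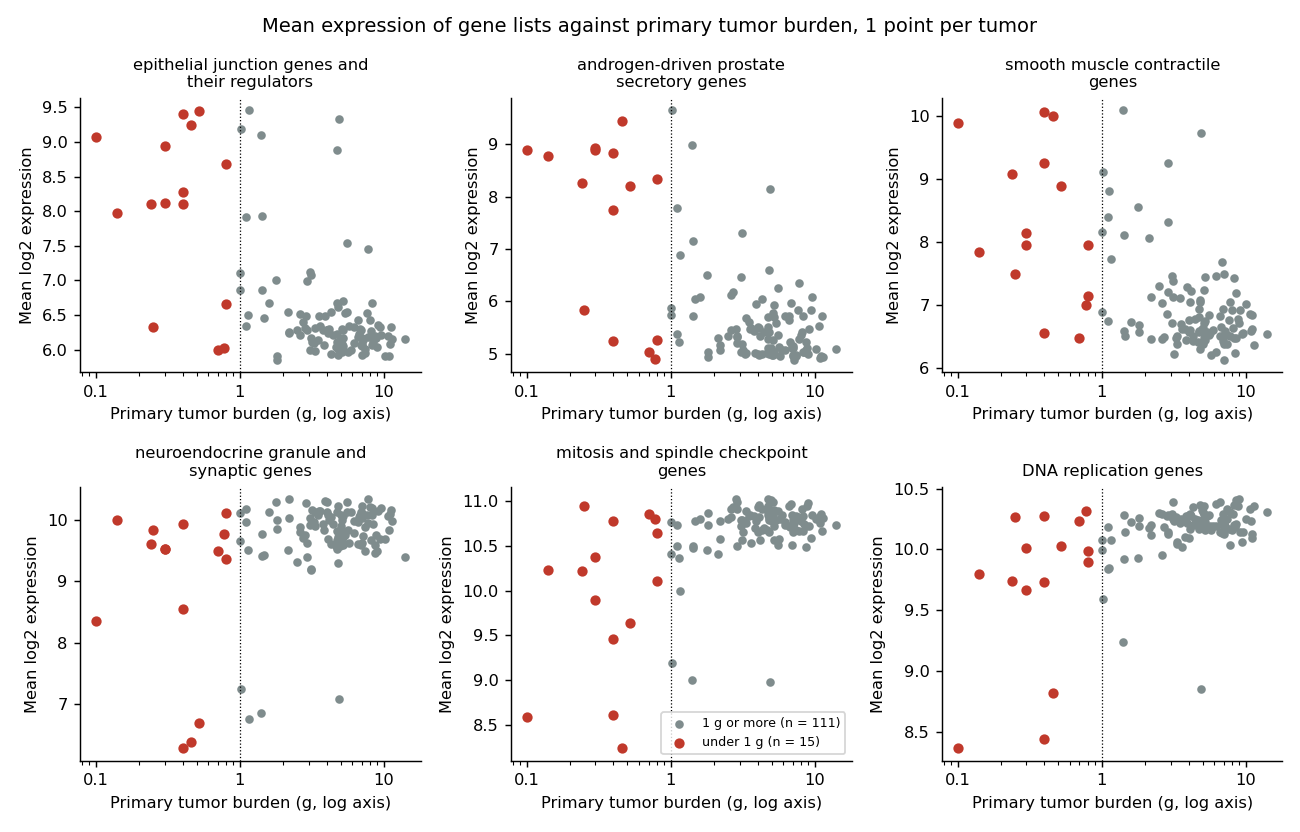
Mean log2 expression of 6 gene lists against primary tumor burden (g, log axis), 1 point per tumor, with tumors under 1 g in red (n = 15), larger tumors in gray and a dotted line at 1 g. Small tumors lie at both the upper and lower ends of each epithelial and stromal list, and a few larger tumors share the high epithelial values.

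A few larger tumors also had high epithelial means. The junction list reached 9.46 among larger tumors and 9.45 among small ones. Mouse tag numbers, which the labels do not call a batch, were split into 4 ranges. Within each range the small tumors were higher in the junction list, by 0.92 (6 small against 42 larger), 2.06 (2 against 19), 2.11 (3 against 36) and 1.76 (4 against 14). The neuroendocrine granule list was lower in each, by -0.24, -1.51, -0.43 and -1.83 in the same order.

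Whether the difference by size depended on distant metastasis was tested by an interaction term, which limma called for 23 transcripts (0.0978%). With group weights 0 passed (989 at an unadjusted p under 0.05), and without N1202 there were 6. Tff3, a trefoil peptide of mucous cells, was 7.16 on average in the 6 small tumors without metastasis and 5.37 in the 9 with it, against 5.29 and 5.40 in larger tumors. Atoh1, a factor of secretory lineages in the intestine, was 7.26 and 5.42 in those small tumors, and its highest value was 9.64 in N582. Cyp2b10, a cytochrome P450, was 8.64 and 6.18.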

How the data were processed

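Expression was measured in 126 primary prostate tumors with Affymetrix Mouse Gene 2.0 ST arrays. The authors deposited log2 values, made by RMA in Partek (version not given in the sources used here). Labels name a Qiagen kit for RNA and the paper's methods TRIzol. Tumors were grouped by the burden label at 1 g.

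Of 41345 probe sets, 23525 had 1 symbol in the platform annotation, 1816 several and 16004 none. The 23507 with a symbol whose mean over all arrays reached the 10th percentile (3.42) were tested. Each was fitted with limma 3.58.1 in R 4.3.3 (lmFit, eBayes), and p-values were adjusted by the Benjamini-Hochberg method, with calls at 0.05. Further limma fits took log2 burden within each group, absolute deviations from group medians, and size with distant metastasis. Lists, figures and Fisher's test used Python 3.11.15 with pandas 2.3.3, scipy 1.17.1 and matplotlib 3.10.9. The size, slope and spread fits were tested on simulated data. The members and gene lists were chosen with earlier results of these data known. Of 335 listed genes in 32 lists, 313 matched a probe set with 1 symbol and 311 were tested. The others were not analysed here.

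Genes were named by rule. It took the 15 largest rises and 15 largest falls, up to 5 members of each list by p and its first member, 5 with the largest and 5 with the smallest ratio of spread, and Cxcl14, Rb1, Mycn and Aurka. The genes named for the interaction were chosen after their values were seen. The probe set of highest mean stood for a gene. Alternatives were other tests, group weights, filters, normalizations, covariates, size limits and leaving out tumors. The number of arrays limits the precision. Nothing says that arrays had technical repeats, and p-values measure the spread between males.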

Additional observations from a re-analysis of the deposited data

Results flagged for a closer look

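Among 64 tests of list means within the small tumors (6 without and 9 with distant metastasis), 6 list means from 4 tumors stood far from the rest of their group. Chance flags about 1 in 20 such groups. N275 had a neuroendocrine granule and synaptic mean of 6.37, against 8.36 to 10.12 in the other small tumors with metastasis. N1130 had an androgen-driven secretory mean of 5.83 (others without metastasis 7.75 to 8.84) and a macrophage mean of 6.56 (7.39 to 7.81). N1202 had a nerve and Schwann cell mean of 7.06 (5.07 to 5.44) and a DNA replication mean of 8.45 (9.73 to 10.27). Its array also had the lowest mean correlation with other arrays (0.88). N183 had a skeletal muscle mean of 10.77 (5.45 to 6.98).

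The difference by size depended on distant metastasis for 23 transcripts in limma's interaction test, but for 0 with group weights and for 6 without N1202, of which 4 were among the 23. The largest single values came from few tumors, such as N293 for Tff3 and N582 for Atoh1.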

How the results depend on the processing

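Of 179 named genes that passed, 0 changed sign under any alternative, 69 lost the call by Welch's t-test, 19 with group weights and 17 without 1 of the small tumors. Genes were named largely by their difference or p in the main fit, and the alternatives used largely the same arrays. A stable sign was therefore likely from the start. Against only tumors of 1 to under 3 g, a smaller set in which the test can miss differences, all 179 lost the call. The count of 9638 moved by more than 1.5 times by Welch's t-test (4865) and against tumors of 1 to under 3 g (0), and was 8507 to 10236 leaving out each small tumor in turn. The burden slope in larger tumors gave 1937 calls with burden in g. The interaction gave 0 calls with group weights and 6 without N1202. Gene list medians moved by less than the SD of the list mean over larger tumors, but against 1 to under 3 g several moved by more than 1.5 times, among them smooth muscle (1.26 to 0.65), uroplakins (0.61 to 0.29), fibroblast and matrix (0.65 to 0.32), endothelial (0.24 to 0.11), MHC class I (0.60 to 0.39), Myc and Aurora (-0.33 to -0.15), Notch (-0.15 to -0.06) and glycolysis (-0.20 to -0.04).

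Only genes that did not pass changed sign, with differences near 0. Without N1202 these were S100a9 (-0.0406), Ngp (-0.0382), Mzb1 (0.00502), S100b (-0.061), Vim (-0.0122) and Fos (-0.0591). At a limit of 2 g they were Ngp (-0.0329) and Mzb1 (0.00487), against 3 g or more Ngp (-0.00423), against 1 to under 3 g Upk3a (-0.0506) and Fos (-0.0131), and with tag ranges as a block Fos (-0.00849). Leaving out each small tumor in turn gave -0.0326 to 0.0812 for Upk3a, -0.0406 to 0.0657 for S100a9, -0.029 to 0.00882 for Elane, -0.0382 to 0.0415 for Ngp, -0.067 to 0.00502 for Mzb1, -0.061 to 0.13 for S100b, -0.0122 to 0.144 for Vim and -0.0591 to 0.0619 for Fos. The cause was not tested. No paired analysis was possible because replicate numbers only name samples.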
